A study of Homo sapiens with 4 samples.

Results

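The 9 genes described here carry the signal from growth factor receptors through phosphoinositide 3-kinase (PI3K) to the FOXO transcription factors. They are PIK3CA, PIK3R1, PIK3R3, PIK3IP1, IRS2, SGK1, FOXO1, FOXO3 and FOXO4. They were taken by gene name from the deposited table of 58735 genes, and all 9 were found. RNA sequencing had been done on 4 libraries of H1299 cells, an established human line of lung cancer of the non-small cell kind, known to be without p53. Wild-type cells gave 2 libraries, and 2 came from cells labelled as TTC28 knockout, made by CRISPR/Cas9 editing. All cells were untreated and were grown in RPMI medium with fetal bovine serum, so that growth factors were present in both groups. The labels do not say whether the knockout was 1 clone or a pool, or whether replicates were separate cultures, so p-values measure only the spread between these libraries.

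Class I PI3K is a dimer of a catalytic and a regulatory subunit. Receptors recruit it directly or through adaptors such as IRS2, and it makes a membrane lipid that brings AKT and its relative SGK1 to their activating kinases. These kinases phosphorylate FOXO factors, which then bind YWHA scaffold proteins and leave the nucleus. When the pathway is weak, FOXO factors stay in the nucleus and turn on genes of arrest, stress resistance and insulin signalling, among them receptor and adaptor genes of the pathway itself. Much of this control acts on proteins, which RNA counts do not measure.

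Library totals lay between 25120500 and 28885443 counts. TTC28 was at 4.88 and 5.44 FPKM (fragments per kilobase of exons, corrected for library depth) in wild-type replicates 1 and 2. It was at 2.96 and 2.99 FPKM in knockout replicates 1 and 2, so the transcript was lower but still present. Mitochondrially encoded genes took 5.87 to 6.07% of the counts in wild type and 8.61 to 10.2% in the knockout. KRT8, KRT18, VIM and EPCAM summed to 462 to 577 FPKM per library, with EPCAM below 1 FPKM in each library. The 10 markers of blood, endothelial, stromal and liver cells summed to 0.348 and 0.400 FPKM in wild type and 0.609 and 0.659 FPKM in the knockout. None of them reached 1 FPKM in any library, and CD3E was at 0 counts throughout.

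Short stretches of promoter sequence are shown for the 3 of the 9 genes whose promoters hold the FOXO consensus, searched as GTAAACA on both strands (TGTTTAC on the other). The windows are those of RefSeq on GRCh38.p14, from 250 bases before to 50 after each annotated start, and all 9 genes matched, with 23 windows between them. Capitals mark the consensus, and each stretch is on the strand of its gene.
PIK3IP1: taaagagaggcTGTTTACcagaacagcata
PIK3CA: agttcgttgttTGTTTACacgatgtgagcg
FOXO4: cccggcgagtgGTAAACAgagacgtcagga
The PIK3IP1 stretch is chr22:31292454-31292483 on the minus strand, with the consensus 16 bases after a start. The PIK3CA stretch is chr3:179148197-179148226 on the plus strand, with the consensus 149 bases before a start. Both lie in an untranslated part of an annotated isoform in GENCODE release 29. The FOXO4 stretch is chrX:71095863-71095892 on the plus strand, 23 bases after a RefSeq start that lies outside the GENCODE gene. The same letters occur in 3.42% of 35116 promoter windows and in at least 1 window of 4.19% of 27305 genes. A match of these letters is a description and shows no binding.

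The comparison of knockout with wild type asks which transcripts of this pathway differ when TTC28 has been targeted. PIK3IP1, a brake on PI3K, was 3.51-fold higher in the knockout, and SGK1 was 1.98-fold lower. The subunit genes PIK3CA, PIK3R1 and PIK3R3 were 1.32- to 1.37-fold higher, FOXO1 was 1.79-fold higher, FOXO3 was 1.2-fold lower, FOXO4 was 1.23-fold higher with a call that most other settings did not keep, and IRS2 was nearly absent. Of the 9 genes, 8 passed the filter of at least 1 FPKM in at least 2 libraries, and IRS2 did not. FOXO1 passed it only through the knockout libraries. All 8 passed the test at an adjusted p under 0.05, 6 higher and 2 lower, where 50.3% of the 13079 tested genes did so, 25.1% higher and 25.2% lower (two-sided quasi-likelihood test of edgeR, p-values adjusted over all tested genes by Benjamini and Hochberg). For each of the 8 genes the groups were apart in FPKM, without overlap, as for 75.5% of all tested genes. With FPKM rescaled to the same sum in each library (TPM), the median log2 fold change over all tested genes was -0.16 instead of 0.00. There 4 of the 8 members passed with limma, 2 higher and 2 lower, where 47.4% of all tested genes did. With limma 1582 of all tested genes were called higher and 4617 lower on the TPM scale, against 2783 and 2870 on the FPKM scale with the same pseudocount of 1. PIK3R3, PIK3IP1, SGK1 and FOXO3 passed on both scales.

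**Figure D1:**
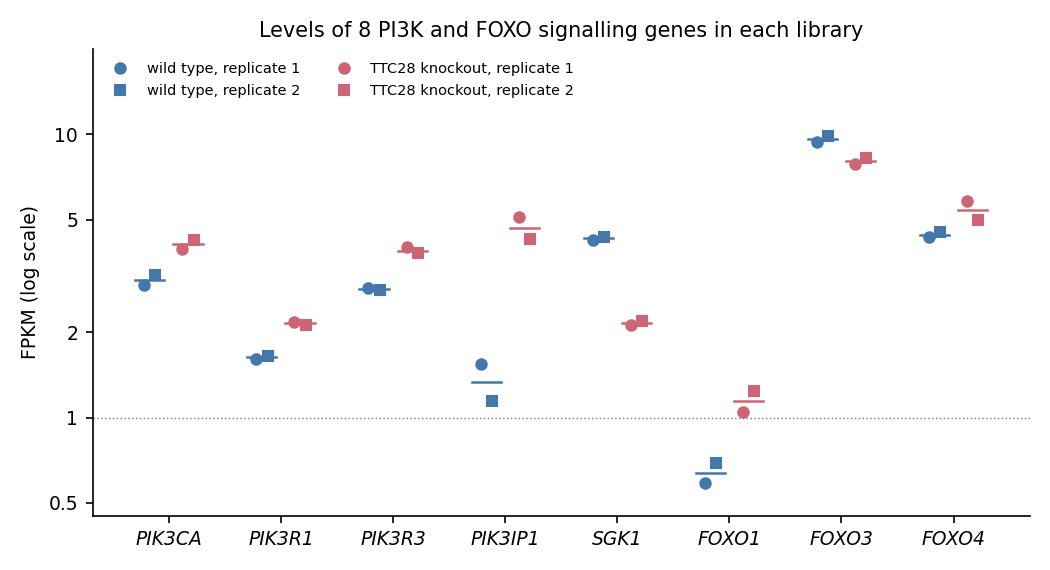
FPKM on a log axis for the 8 genes past the filter, with a point for each library (circle, replicate 1; square, replicate 2), a short line at each group mean and a dotted line at 1 FPKM. IRS2, at 0 in knockout replicate 1, is left out. The largest gap between the groups is that of PIK3IP1, and FOXO1 is the gene with wild-type libraries under 1 FPKM.

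In wild type the levels per length ran from FOXO3 at 9.64 FPKM through FOXO4 (4.42), SGK1 (4.29), PIK3CA (3.07), PIK3R3 (2.85), PIK3R1 (1.63), PIK3IP1 (1.34) and FOXO1 (0.639) to IRS2 (0.0226). The ranges of FOXO4 and SGK1 overlapped, and those of the other neighbours in this order did not. In the knockout SGK1 had moved from the third place to the sixth and PIK3IP1 from the seventh to the third. There the ranges of FOXO4 and PIK3IP1, of PIK3CA and PIK3R3 and of SGK1 and PIK3R1 overlapped. FPKM divides by all annotated exon bases of a gene, so a gene read mostly as a short isoform has a level that is too low. This touches SGK1, whose annotated exons span 9992 bases in all.

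PIK3CA encodes the alpha catalytic subunit of class I PI3K (ENSG00000121879, hg38 chromosome 3, 179148114 to 179240093, plus strand). Wild-type replicates 1 and 2 held 2.95 and 3.19 FPKM, and knockout replicates 1 and 2 held 3.93 and 4.25. Both knockout libraries were above both wild-type libraries. The group means were 3.07 ± 0.169 FPKM (SD, n = 2) and 4.09 ± 0.225 FPKM (SD, n = 2), a log2 fold change of 0.42 with SE 0.0850 (adjusted p = 0.00122). The 50 nearest tested genes on chromosome 3 had a median log2 fold change of 0.28, and 10 of them were below 0. PIK3CA stood 0.13 above this median. Its exons share 3403 bases (35.8%) with KCNMB3 on the opposite strand, which had 35 to 57 counts per library, against 734 to 1040 for PIK3CA. The strand setting was not stated, so the PIK3CA level and the sums that hold it may depend on how shared reads were counted.

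PIK3R1 and PIK3R3 encode regulatory subunits, which hold the catalytic subunit stable and inhibited until phosphorylated receptors or adaptors are bound. PIK3R1 (ENSG00000145675, chromosome 5, 68215720 to 68301821, plus strand) was at 1.61 and 1.65 FPKM in the wild-type libraries and at 2.18 and 2.13 FPKM in the knockout libraries. The replicates of each group were close together and the groups apart. Its log2 fold change was 0.40 with SE 0.0898 (adjusted p = 0.00214). PIK3R3 (ENSG00000117461, chromosome 1, 46040140 to 46133036, minus strand) was at 2.87 and 2.83 FPKM in wild type and at 3.99 and 3.8 FPKM in the knockout. Again both knockout libraries were higher, by 0.45 on the log2 scale with SE 0.0841 (adjusted p = 0.000603). PIK3R3 shares 1292 exon bases (17.4%) with AL358075.4 on the same strand, which held 0 counts, so its level and the sums that hold it may be affected by how shared reads were counted. Neighbouring genes had median log2 fold changes of -0.08 around PIK3R1 and 0.01 around PIK3R3, and the genes themselves stood 0.48 and 0.45 above these medians.

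The other genes of class I PI3K were PIK3CB, PIK3CD and PIK3CG, which encode further catalytic subunits, and PIK3R2, PIK3R5 and PIK3R6. Of the 9 genes of the class, 6 were tested, 5 rose and 1 fell, with a median log2 fold change of 0.41 against 0.00 over all tested genes. All 6 were called, where 56.6% of protein-coding genes and 50.3% of all tested genes were. PIK3CB was at 7.76 and 8.44 FPKM in wild type and at 11.4 and 11.1 FPKM in the knockout, and rose by 0.48 ± 0.0661 (log2 fold change ± SE, adjusted p = 6.08e-05). PIK3R2 aside, it had the highest FPKM of the class in every library. Its 50 nearest tested genes had a median of 0.26, and PIK3CB stood 0.21 above this median. PIK3CD rose by 0.35 ± 0.0871 (adjusted p = 0.00482) but did not pass on the TPM scale or without wild-type replicate 1 (adjusted p = 0.0799), and PIK3CG fell, with a log2 fold change of -0.71 ± 0.157 (adjusted p = 0.00200). PIK3CG was at 0.932 FPKM in knockout replicate 1 and 1.30 FPKM in knockout replicate 2, against 1.80 and 1.86 FPKM in wild type, and lay -0.46 from its neighbour median of -0.25. PIK3R2 held 0 counts in 3 libraries and 2 in knockout replicate 2, but 87.2% of its exon bases are shared with the gene AC007192.1 on the same strand, which held 0 counts. How the counting treated reads of shared exons was not stated, so the PIK3R2 value cannot be read as a level.

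The catalytic subunits summed to 17.3 and 18.9 FPKM in wild type and to 22.5 and 23.3 FPKM in the knockout. Regulatory subunits summed to 4.49 FPKM in both wild-type libraries and to 6.18 and 5.97 FPKM in the knockout. Both sums were higher in each knockout library, by 1.27-fold for the catalytic and 1.35-fold for the regulatory subunits. The ratio of regulatory to catalytic FPKM was 0.260 and 0.237 in wild type and 0.275 and 0.256 in the knockout, and the groups overlapped. The regulatory sum and the ratios hold PIK3R2 at its listed value, which cannot be read as a level. The regulatory sum, its fold and the ratios may thus leave out a subunit. Sums and shares are given as descriptions without a test. An exact permutation test, which was not run, cannot give p below 0.33 with 2 against 2 libraries.

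**Figure D2:**
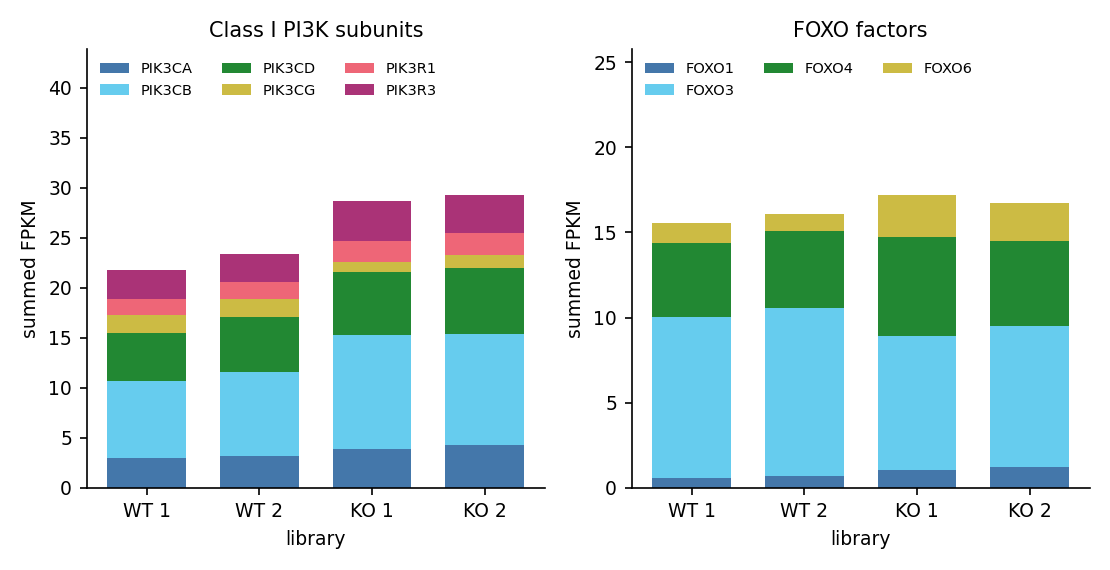
Stacked bars of FPKM per library, for the 6 tested class I PI3K subunits (left) and the 4 FOXO factors (right); WT is wild type, KO the knockout, and the number the replicate; PIK3R2, PIK3R5 and PIK3R6, which were not tested, are left out. The PI3K bars are taller in both knockout libraries, with the catalytic sum at 22.5 and 23.3 FPKM, while the FOXO bars differ more in make-up than in height.

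PIK3IP1 encodes a membrane protein with an extracellular kringle domain that binds the PI3K dimer and lowers its activity. The gene (ENSG00000100100, chromosome 22, 31281593 to 31292534, minus strand) had 154 and 118 counts in wild-type replicates 1 and 2 and 542 and 396 counts in knockout replicates 1 and 2. In FPKM these were 1.54, 1.14, 5.11 and 4.26. Replicate 1 was the higher in both groups, and the lowest knockout library was far above the highest wild-type library. The group means were 1.34 ± 0.287 FPKM (SD, n = 2) and 4.69 ± 0.601 FPKM (SD, n = 2). PIK3IP1 rose by 1.81 on the log2 scale with SE 0.152 (adjusted p = 8.89e-07), and 0.688% of the tested genes had a higher log2 fold change. A rise of at least 1 on this scale was called for 2.95% of them. The gene lies 2.60 Mb from TTC28 on the same chromosome, and its 50 nearest tested genes had a median log2 fold change of -0.06, with 26 below 0. PIK3IP1-AS1 on the opposite strand shares 36 exon bases with it and had at most 7 counts in a library.

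The list of lipid phosphatases and brakes of the pathway holds 13 genes. Of these 10 were tested, 7 rose, PIK3IP1 among them, 2 fell and 1 did not pass, and the median over those tested was 0.24 on the log2 scale. Over all tested genes 25.1% were called higher. INPP4A, a phosphatase gene, rose by 0.78 ± 0.0834 and INPP5F by 0.79 ± 0.0813, beside neighbour medians of 0.44 and 0.19. INPP5E, a lipid phosphatase of the primary cilium, fell (-0.34 ± 0.0690, adjusted p = 0.00105).

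IRS2 encodes an adaptor that couples insulin and insulin-like growth factor receptors to PI3K. The gene (ENSG00000185950, chromosome 13, 109752698 to 109786568, minus strand) had 1 and 9 counts in wild type and 0 and 1 in the knockout, which is at most 0.0406 FPKM. Wild-type replicate 2 held most of the 11 counts. The summed counts of 10 and 1 give a ratio of wild type to knockout of 9.77, with a 95% exact Clopper-Pearson interval of 1.39 to 424 that covers counting error only. Fitted with edgeR without a filter, it had an adjusted p of 0.182. At this depth the direction of IRS2 could not be told from the spread between replicates.

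IRS1, the related adaptor, was instead at 5.53 and 6.21 FPKM in wild type and at 6.61 and 5.79 FPKM in the knockout, and did not pass the test (0.08 ± 0.0811, adjusted p = 0.418). Of the 14 receptor adaptor genes on the list, 9 were tested, 6 rose, 0 fell and 3 did not pass, with a median log2 fold change of 0.53. That is 66.7% called, against 56.6% over protein-coding genes and 50.3% over all tested genes. PIK3AP1, an adaptor that binds PI3K regulatory subunits, was at 1.28 and 1.16 FPKM in wild type and at 3.89 and 3.83 FPKM in the knockout, 3.17-fold higher (adjusted p = 1.12e-07). GRB14, an inhibitor of the insulin receptor, rose by 1.67 ± 0.232, the signalling adaptor FRS2 by 0.63 ± 0.0866 and SH2B1 by 0.53 ± 0.0729. GRB14 lies on chromosome 2, where its 50 nearest tested genes had a median of 0.37.

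SGK1 encodes a kinase related to AKT that is activated downstream of PI3K and phosphorylates FOXO factors. Its transcript is short-lived and is known to be induced by serum, glucocorticoids and osmotic stress. The gene (ENSG00000118515, chromosome 6, 134169246 to 134318112, minus strand) was at 4.23 and 4.35 FPKM in wild type and at 2.13 and 2.19 FPKM in the knockout. The replicates were close together, and the knockout libraries held about 0.505 of the wild-type level. The group means were 4.29 ± 0.0888 FPKM (SD, n = 2) and 2.16 ± 0.0419 FPKM (SD, n = 2). SGK1 fell by 0.99 on the log2 scale with SE 0.0816 (adjusted p = 7.75e-07), and 2.62% of the tested genes had a lower log2 fold change. Its 50 nearest tested genes had a median of -0.10.

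SGK3, its paralog, rose by 0.44 ± 0.0889 (adjusted p = 0.00119), from 3.64 and 4.0 FPKM to 4.93 and 5.39 FPKM. Its neighbour median was 0.19, and SGK3 stood 0.24 above it. As a share of the summed FPKM of SGK1, SGK2 and SGK3, SGK1 made up 53.0 and 51.7% in wild type and 29.5 and 28.1% in the knockout. AKT2 rose by 0.26 ± 0.0644 (adjusted p = 0.00443), while AKT1 was at -0.08 ± 0.0619 and did not pass (adjusted p = 0.292). On the TPM scale SGK3 and AKT2 did not pass, and AKT2 did not pass without wild-type replicate 1 (adjusted p = 0.0618). GSK3A, a kinase that AKT inhibits, was at -0.17 ± 0.0641 (adjusted p = 0.0369), and its adjusted p was 0.192 without wild-type replicate 2, 0.0972 without wild-type replicate 1 and 0.165 without knockout replicate 2. Of the 9 genes of AKT, SGK and partner kinases, 8 were tested, SGK1 among them, 3 rose, 2 fell and 3 did not pass. These calls are 62.5% of the genes tested, against 56.6% over protein-coding genes and 50.3% over all tested genes.

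Of the 10 glucocorticoid response genes listed, 8 were tested, 0 rose, 5 fell, SGK1 among them, and 3 did not pass, with a median log2 fold change of -0.25. Calls made up 62.5% of those tested, against 56.6% of protein-coding genes and 50.3% of all tested genes. Not past the test were FKBP5 (0.04 ± 0.0660), KLF9 (-0.05 ± 0.0747) and NR3C1 (0.18 ± 0.0730), the last with an adjusted p of 0.05, at the threshold. TSC22D3, too low to be tested, went the other way, from 11 and 17 counts in wild type to 33 and 27 in the knockout. ERRFI1, a feedback inhibitor of the epidermal growth factor receptor, was at 176 and 179 FPKM in wild type and at 70.4 and 73.3 FPKM in the knockout, 2.47-fold lower (adjusted p = 8.38e-09). ANGPTL4, a secreted inhibitor of lipoprotein lipase, fell (-0.90 ± 0.0929), as did the clock gene PER1 (-0.29 ± 0.0809), which did not pass without wild-type replicate 1 (adjusted p = 0.0647). DUSP1 was at -0.21 ± 0.0801 (adjusted p = 0.0416) and did not pass when any 1 library was left out. The genes whose pattern over the 4 libraries lay closest to that of SGK1, by Euclidean distance in centred log2 FPKM among tested protein-coding genes, were SESN2 (0.0202), SRM (0.0365) and PSPH (0.0413). With 2 against 2 libraries this distance mostly picks genes of a like fold change, here -1.0, -1.01 and -0.98 on the log2 scale. Shared control was not tested.

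Genes of the mTOR complexes, the growth kinases that receive the AKT signal, went both ways. Of the 13 listed, 10 were tested, 2 rose, 4 fell and 4 did not pass, and their median was -0.08 on the log2 scale. The share called was 60.0%, close to the 56.6% over protein-coding genes. TSC1, an inhibitor of the GTPase RHEB, rose by 0.43 ± 0.0686 (adjusted p = 0.000174). RHEB, which activates mTOR, fell (-0.37 ± 0.0631, adjusted p = 0.000327), as did AKT1S1 (-0.29 ± 0.0617) and MLST8 (-0.29 ± 0.0667).

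FOXO1, FOXO3 and FOXO4 encode the forkhead factors that PI3K signalling keeps out of the nucleus. FOXO1 (ENSG00000150907, chromosome 13, 40469953 to 40666597, minus strand) had 96 and 117 counts in wild type and 182 and 188 in the knockout. In FPKM these were 0.588, 0.689, 1.05 and 1.24, so that it passed the filter only through the group where it was higher. It rose by 0.84 with SE 0.169 (adjusted p = 0.00109). Fitted with edgeR without a filter it had an adjusted p of 8.68e-06. That fit also gave far smaller values for PIK3IP1 (1.38e-38) and SGK1 (1.75e-24) than the reported one, so it is no firmer support. The adjusted p of FOXO1 was 0.00227 with DESeq2 and 0.0365 with limma on log2(FPKM + 1). Both fits used the genes past the same filter, so they carry the same selection and are no separate support. The pseudogene FOXO1B, from which reads may be shared, had 21 to 39 counts per library. On the TPM scale FOXO1 did not pass (0.49, adjusted p = 0.0687 with limma).

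FOXO3 (ENSG00000118689, chromosome 6, 108559835 to 108684774, plus strand) was at 9.43 and 9.86 FPKM in wild type and at 7.85 and 8.26 FPKM in the knockout. Its level was the highest of the 9 genes in every library, and both knockout libraries were lower. It fell by 0.26 with SE 0.0670 (adjusted p = 0.00593), beside a median of -0.14 over its 50 nearest tested genes, of which 34 were below 0. Without wild-type replicate 2 the log2 fold change was -0.23 and did not pass (adjusted p = 0.0655). The pseudogene FOXO3B, from which reads may be shared, had 157 to 245 counts, against 1557 to 2073 for FOXO3.

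FOXO4 (ENSG00000184481, chromosome X, 71096197 to 71103535, plus strand) was at 4.34 and 4.51 FPKM in wild type and at 5.83 and 5.00 FPKM in the knockout. Knockout replicate 1 was clearly higher, and replicate 2 lay just above wild type. The log2 fold change was 0.30 with SE 0.105 (adjusted p = 0.0314). It did not pass in 8 of the 15 other settings, among them DESeq2 (adjusted p = 0.0968), total-count scaling (0.0815) and leaving out wild-type replicate 1 (0.163), wild-type replicate 2 (0.117) or knockout replicate 1 (0.183). The adjusted p ranged from 0.00591 to 0.371 over these settings. In the authors' deposited table its adjusted p was 0.172, and the other tested members of the 9 were below 0.05 there.

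FOXO6, the remaining factor, was at 1.19 and 0.995 FPKM in wild type and at 2.44 and 2.25 FPKM in the knockout, 2.15-fold higher (adjusted p = 0.000270). The 4 factors summed to 15.6 and 16.0 FPKM in wild type and to 17.2 and 16.7 FPKM in the knockout. In summed counts, which are scaled neither to depth nor to gene length, the order of the means turned. There the groups overlapped, at 2470 and 2680 in wild type and 2590 and 2300 in the knockout. Of the FPKM sums FOXO3 made up 60.6 and 61.4% in wild type and 45.7 and 49.3% in the knockout. FOXO1 made up 3.78 and 4.30% in wild type and 6.10 and 7.38% in the knockout. The share of FOXO6 was 7.67 and 6.20% in wild type and 14.2 and 13.5% in the knockout.

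**Figure D3:**
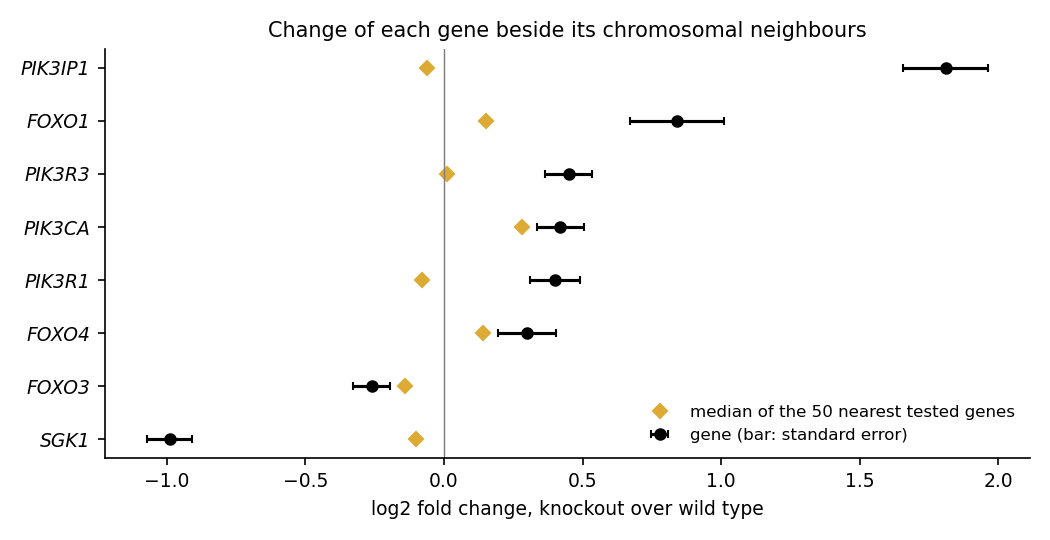
Log2 fold change of knockout over wild type for the 8 tested genes (black points, with bars of 1 standard error) and the median of the 50 nearest tested genes on the same chromosome (diamonds). PIK3IP1 at 1.81 and SGK1 at -0.99 lie far from their neighbours, while PIK3CA, FOXO3 and FOXO4 lie within 0.16 of theirs.

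Of the transcripts for proteins that bind or modify FOXO factors, all 18 listed were tested, 2 rose, 8 fell and 8 did not pass, and their median was -0.13 on the log2 scale. The share called was 55.6%, close to the 56.6% over protein-coding genes and the 50.3% over all tested genes. YWHAQ, a scaffold that holds phosphorylated FOXO in the cytoplasm, was at 199 and 205 FPKM in wild type and at 108 and 105 FPKM in the knockout, 1.89-fold lower (adjusted p = 1.26e-07). It lies near the end of chromosome 2, where its 44 nearest tested genes had a median of -0.70, and YWHAQ lay -0.22 from this median. YWHAH (-0.47 ± 0.0632) and the arginine methyltransferase gene PRMT1 (-0.47 ± 0.0611) fell beside neighbour medians of 0.02 and 0.06. SFN, another scaffold of the family, rose by 1.63 ± 0.271 and passed the filter only through the knockout libraries.

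Of the 38 FOXO target genes listed, 28 were tested, PIK3CA among them and IRS2 not, 14 rose, 6 fell and 8 did not pass. Their median log2 fold change was 0.28, and 1 gene, ERBB3, passed the filter only through the knockout libraries. Of those tested 71.4% were called, where 56.6% of protein-coding genes and 50.3% of all tested genes were. The list does not separate genes that FOXO factors turn on from genes that they turn off, so its counts give no direction of FOXO activity. TP53INP1, a gene of stress response and autophagy, was at 4.20 and 4.72 FPKM in wild type and at 10.9 and 11.4 FPKM in the knockout, 2.50-fold higher (adjusted p = 7.02e-08). ERBB3, a receptor that recruits PI3K, rose by 1.73 ± 0.109 beside a neighbour median of 0.34, and the transcription factor gene KLF2 rose by 0.94 ± 0.0746. GADD45A, a gene of DNA damage and growth arrest, was at 119 and 117 FPKM in wild type and at 64.9 and 56.4 FPKM in the knockout, 1.95-fold lower (adjusted p = 2.90e-07). The list thus held large changes in both directions.

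PIK3R4 and PIK3C3 encode the class III complex, which serves autophagy and endosomes and does not feed AKT. PIK3R4 rose by 0.80 ± 0.0708 (adjusted p = 1.34e-06) and PIK3C3 by 0.49 ± 0.0675 (adjusted p = 5.56e-05). The class II genes were PIK3C2B, at 0.50 ± 0.125 past the filter only through the knockout libraries and not past the test without wild-type replicate 1 or with limma on any scale (adjusted p from 0.0943 to 0.236), and PIK3C2A, at 0.02 ± 0.0809 and not past the test. Over the 10 lists, which hold 129 different genes, 102 were tested, 44 rose and 28 fell, against 50.3% called over all genes. On the TPM scale the split was 27 higher and 35 lower.

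**Figure D4:**
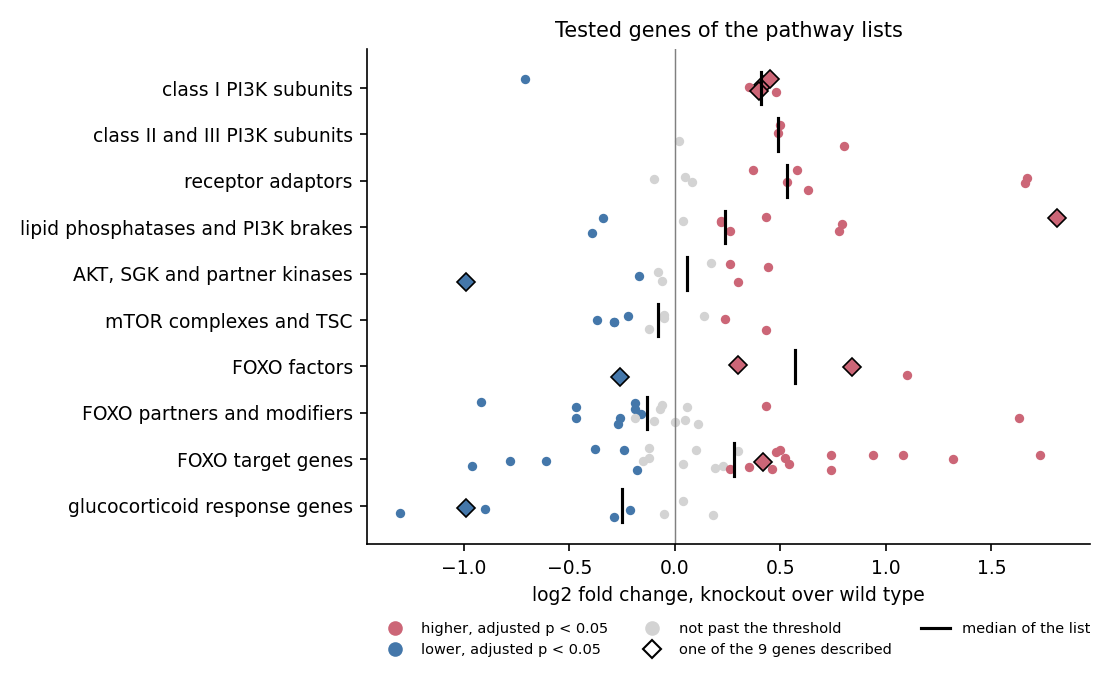
Log2 fold change of knockout over wild type for every tested gene of the 10 lists, 1 row per list, coloured by the call of edgeR's quasi-likelihood test, with diamonds for the genes described in full and a black line at the median of each list. Class I PI3K subunits lie to the right of 0 except PIK3CG at -0.71, and glucocorticoid response genes past the test lie to the left.

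The calls of the single genes were not equally firm. PIK3R3, PIK3IP1 and SGK1 passed in each of the 14 other settings that tested them. PIK3CA, PIK3R1 and FOXO1 passed in 13 of 14, with the TPM scale as the exception, and FOXO3 in 14 of 15. FOXO1 had passed the filter only through the knockout libraries, and most of these settings kept that filter. Over all tested genes the share called was 58.0% with a filter of 5 FPKM, 50.6% with median-of-ratios scaling, 42.2% with DESeq2, 43.2 and 42.9% with limma at pseudocounts of 1 and 0.1, and 54.3% with a replicate block. It was 35% with a filter of 0.1 FPKM and 25.7% with none. It was 37.1% without wild-type replicate 1, 38.0% without wild-type replicate 2, where 6 of the 8 tested members passed, 49.4% without knockout replicate 1 and 47.2% without knockout replicate 2. The log2 fold change of PIK3IP1 ranged from 1.28 to 2.05 over the settings and that of SGK1 from -1.05 to -0.74, with the values nearest to 0 for both on the log2(FPKM + 1) scale.

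**Figure D5:**
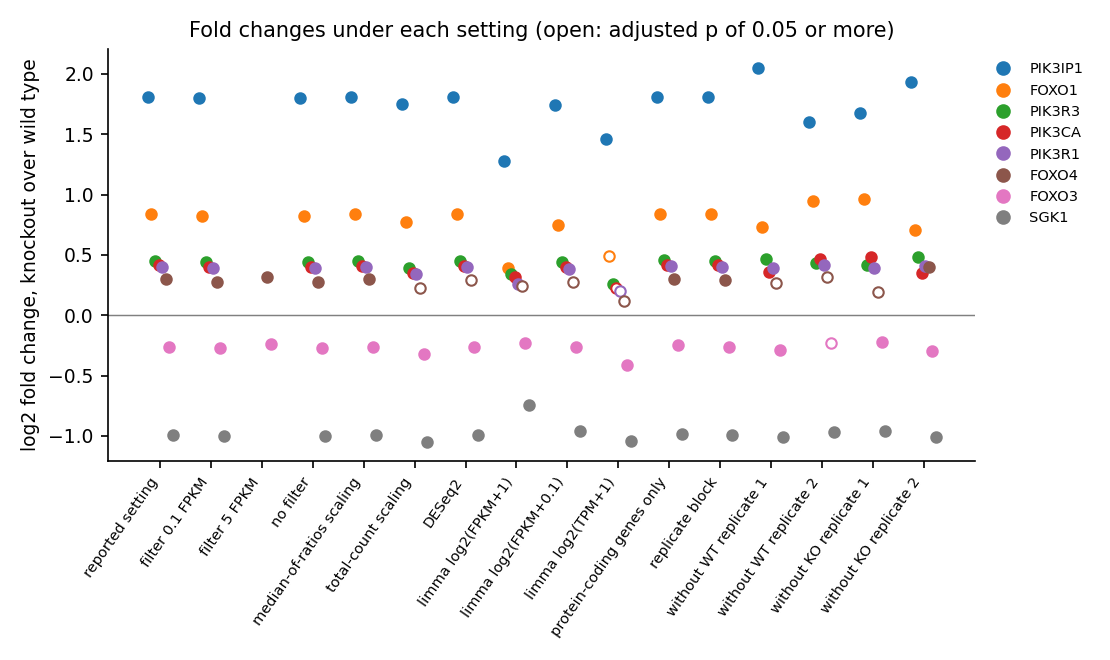
Log2 fold change of knockout over wild type (vertical axis) under the reported setting and each alternative (horizontal axis), coloured by gene, with open circles where the adjusted p was 0.05 or more. No gene crosses 0, and FOXO4 has most of the open circles, 8 in all.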

How the data were processed

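The submitters' processing notes name HISAT2 2.0.5 and the build hg38. No source used here states which counter, strand setting or gene annotation was chosen. The authors deposited raw counts per gene and library, and FPKM values. These FPKM are not counts over gene length and library total alone. They carry a further scaling, larger in the knockout libraries than in the wild-type libraries, whose method is not stated and which enters the FPKM sums. The deposited signal columns (group means of scaled counts) were not used. The authors' deposited log2 fold change and p-value columns come from a test whose tool is not named per the file headers, and are quoted only where named. All 58735 genes have the same coordinates in GENCODE release 29, which gave exon overlaps.

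Libraries were grouped by the labels. The 13079 genes that reached 1 FPKM in 2 or more libraries were tested on counts with edgeR 4.0.16 in R 4.3.3, with TMM factors from 0.978 to 1.02 and no covariates, and p-values were adjusted over all tested genes. Adjusted p-values in the text come from this fit unless another is named, and standard errors of fold changes from the same fit. DESeq2 1.42.0 and limma 3.58.1 served as alternatives. EdgeR, DESeq2 and limma were tested on simulated data drawn from these libraries. The neighbours of a gene were up to 25 tested genes on each side. Their median is a description, and no cause of a shift shared with neighbours was tested. Members and lists were chosen with earlier results of these data known. The genes named were TTC28, the 9 members, up to 4 other tested genes of each list with the smallest p, and the 3 closest patterns. IRS1, AKT1, PIK3R2, FKBP5, KLF9, NR3C1 and TSC22D3, and the genes of the last section, were named after their values were seen. Some genes that this rule names are not reported here.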

Additional observations from a re-analysis of the deposited data

How the results depend on the processing

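Settings tried were filters of 0.1 FPKM, 5 FPKM or none, median-of-ratios and total-count scaling, DESeq2, limma with pseudocounts of 1 and 0.1, protein-coding genes only, a replicate block and leaving out each library; where a group then had 1 library, it was assumed to vary like the others. Limma on TPM was chosen after seeing the data. The 8 tested members kept their direction in each setting that tested them. With a filter of 5 FPKM fewer genes were tested, and calls came to 4346 over all genes, 45 of the listed pathway genes and 2 of the 2 members then tested (FOXO3 and FOXO4); on the TPM scale 4 members passed. Without 1 library, 6 to 8 members passed. Deviations from the group means had a correlation of -0.00144 for equal replicate numbers, which with 2 libraries per group cannot tell whether libraries were paired. With the replicate block 7108 genes, 76 pathway genes and 8 members passed. PIK3C2A, not past the test, changed sign with total-count scaling (-0.04), on the TPM scale (-0.14) and within a range of -0.06 to 0.11 without 1 library. Sums of counts in place of FPKM, which weight long genes more, moved the regulatory to catalytic ratio to 0.286 in wild type and 0.299 in the knockout, the share of FOXO3 to 77.3 and 66.4%, that of FOXO4 to 15.8 and 20% and that of FOXO6 to 2.73 and 6.01%, in the same order of groups, while the mean FOXO sum was 0.95 times that of wild type in counts and 1.07 times in FPKM. Depth limits IRS2, with 11 counts in all.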

Other observations

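Among the FOXO target genes, 4 that are widely used as readouts were looked at after their values were seen. BCL2L11, which encodes the death protein BIM, was at 1.87 and 1.94 FPKM in wild type and at 3.73 and 4.31 FPKM in the knockout, 2.11-fold higher (edgeR's quasi-likelihood test, adjusted p = 2.62e-06), beside a median log2 fold change of 0.41 over its 50 nearest tested genes on chromosome 2. CCNG2, an atypical cyclin of arrested cells, was 1.68-fold higher (adjusted p = 3.21e-06) and INSR, the insulin receptor gene, 1.45-fold higher (adjusted p = 0.000147). CDKN1B, the cell cycle inhibitor p27, was lower instead, at 26.5 and 25.8 FPKM in wild type and at 15.2 and 15.1 FPKM in the knockout (-0.78 ± 0.0686). Its 50 nearest tested genes on chromosome 12 had a median of -0.43. These 4 genes were picked by hand and do not stand for the whole list. On that list 14 of the 28 tested genes were called higher and 6 lower. TRIB1 (-0.61 ± 0.144) and CITED2 (-0.24 ± 0.0633) belonged to the lower ones. For SOD2 (-0.12 ± 0.066) and CAT (0.19 ± 0.0859) no change was called.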
